A study of Homo sapiens with 6 samples.

Results

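The proteins that build the neuronal growth cone, the motile tip of an extending axon, were examined at the transcript level in SH-SY5Y, an established line of human neuroblastoma cells with neuronal traits. They were 10 genes in 3 families: the membrane-attached actin regulators BASP1, GAP43, MARCKS and MARCKSL1, the stathmins STMN1, STMN2 and STMN3, and the collapsin response mediator proteins DPYSL2, DPYSL3 and CRMP1. Members were the Affymetrix probe sets annotated to 1 of these symbols or an older alias, which gave 17 probe sets of 22215, standing for 10 of the 11963 genes that could be named. One further probe set, annotated to both STMN1 and MIR3917, was left out of these counts. The set was chosen by hand with earlier results of the same arrays in view, above all the near-equal bilirubin minus DMSO differences of BASP1 in its 3 same-numbered array pairs. Differences between the groups are therefore given as a description for these genes, without a test of their own.

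Cells received medium with free bilirubin at 140 nM (Bf 140 nM, 3 arrays) and the controls medium with the solvent alone (DMSO 0.6%, 3 arrays), each array carrying RNA from its own flask collected after 4 h. Unconjugated bilirubin (UCB), the breakdown product of heme, was supplied in DMSO to the first group, so both groups were exposed to the solvent. SH-SY5Y is a single, dividing tumour line without differentiation treatment in the labels, and the arrays report on whole cultures, in which fewer cells of a type and less RNA per cell cannot be told apart. Levels are the authors' normalised values on a generalised log2 scale, which is close to log2 at high signal and squeezes differences at low signal. A difference is Bf 140 nM minus DMSO 0.6% on that scale, so that 1 stands for a doubling, and a pair is the 2 arrays that share a replicate number.

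The families act on the cytoskeleton and the membrane of the growth cone. BASP1, GAP43, MARCKS and MARCKSL1 lie on the inner face of the plasma membrane, bind acidic phospholipids and calmodulin, and are substrates of protein kinase C, through which they tie calcium signals to actin. Stathmins bind tubulin dimers and promote the shrinkage of microtubules, an activity that phosphorylation turns off. The collapsin response mediator proteins bind tubulin and relay repulsive cues such as semaphorin 3A. Several of these genes are familiar markers of young, growing neurons and of neuroblastoma cells.

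The promoters of BASP1 and GAP43 are shown because their proteins do alike work at the membrane. On these arrays the BASP1 probe set varied more with the treatment groups and those of GAP43 more with the replicate numbers. BASP1 was chosen with its even pair differences in view, so no contrast in regulation is read from this. Both windows hold the 250 bases before the RefSeq start of transcription, from RefSeq (build GRCh38.p14, plus strand), and lie at chr5:17216573-17216822 and chr3:115623260-115623509. Capitals mark the E-box, CANNTG, the site of basic helix-loop-helix factors, which reads alike on both strands.
BASP1: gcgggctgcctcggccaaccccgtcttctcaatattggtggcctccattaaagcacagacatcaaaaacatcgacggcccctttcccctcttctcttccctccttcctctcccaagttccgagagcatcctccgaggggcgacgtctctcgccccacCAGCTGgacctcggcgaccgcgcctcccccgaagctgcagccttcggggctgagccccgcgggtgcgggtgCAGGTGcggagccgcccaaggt
GAP43: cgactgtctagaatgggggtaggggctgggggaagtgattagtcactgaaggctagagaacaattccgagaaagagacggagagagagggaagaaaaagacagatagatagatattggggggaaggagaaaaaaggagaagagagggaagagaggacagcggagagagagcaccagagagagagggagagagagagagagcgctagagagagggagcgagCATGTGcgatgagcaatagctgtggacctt

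The BASP1 window had 65.6% G and C and held 2 E-boxes, beginning 93 and 22 bases before the start, and 1 GC-box (GGGCGG on either strand). The GAP43 window had 51.6% G and C and held 1 E-box, 30 bases before the start, and no GC-box. Neither held TATAAA on either strand, and no match overlapped another. Over all 35116 windows of this length in the RefSeq table, 61.8% held an E-box, 42.6% a GC-box and 10.7% TATAAA, so that most promoters share the E-box. These matches describe the letters only.

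Most of the growth cone probe sets were among the brightest on the arrays. In 10 of 17 the average percentile among all probe sets of an array was above 90, and in 8 it was above 90 on each of the 6 arrays. Since probe sets differ in how well they bind, a percentile is a measure of brightness and not of the number of transcripts. STMN2, the membrane-attached stathmin of growing neurites, had the brightest probe set of the 17 (203001_s_at), with percentiles between 98.5 and 99.0, above the range of every other member. Its second probe set (203000_at, 97.9 to 98.4), DPYSL2 (97.6 to 98.1), MARCKSL1 (97.2 to 98.1) and the brightest probe set of MARCKS (97.0 to 98.1) followed, and the ranges of these neighbours overlapped. The dimmest was STMN3, at percentiles of 20.4 to 42.5, below the middle of the array, where folds are understated.

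**Figure D1:**
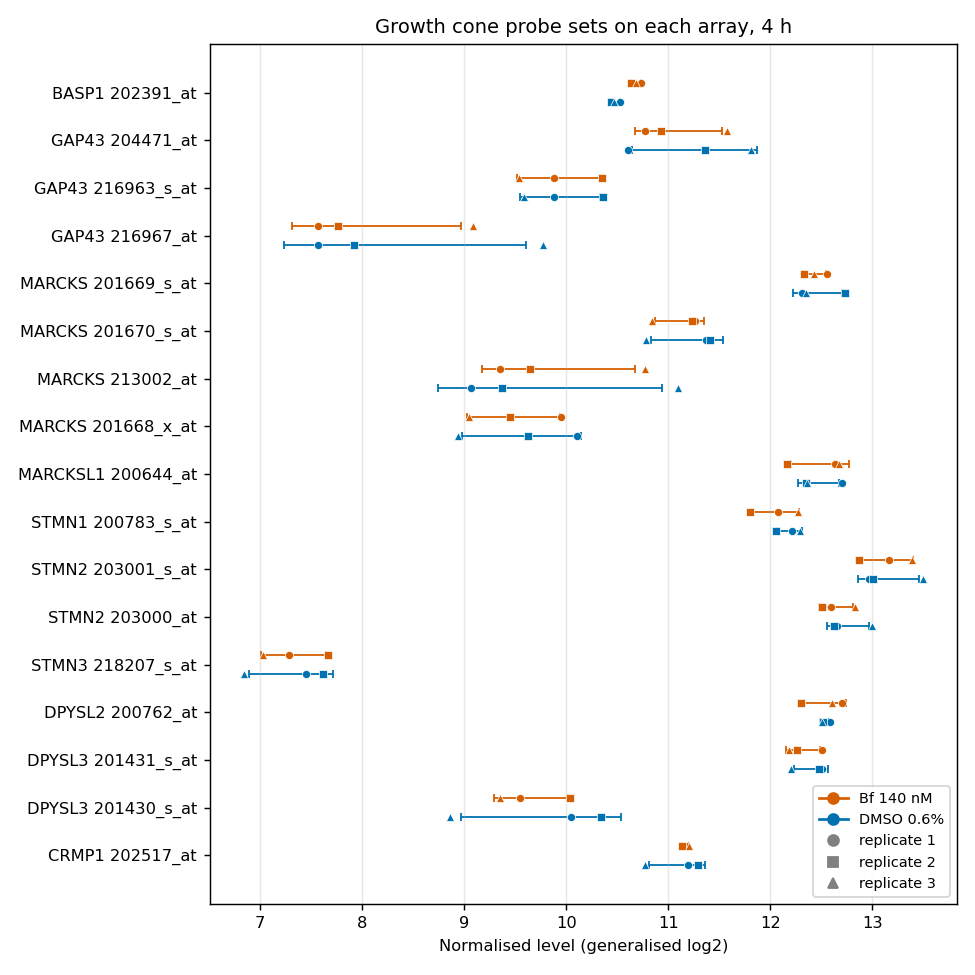
Normalised level (generalised log2) of the 17 growth cone probe sets on each array, with Bf 140 nM in orange above DMSO 0.6% in blue, marker shapes for the replicate number, and bars for the mean and SD of 3 arrays. Only for BASP1 do the 3 orange points lie beyond the 3 blue ones, while the widest bars are those of GAP43 216967_at and MARCKS 213002_at.

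By limma across all probe sets, 0 of the 17 growth cone probe sets passed a Benjamini-Hochberg adjusted p of 0.10, beside a background of 0% (0 of 22215 probe sets). At an unadjusted p under 0.05 there were 0 of the 17 and 17 of all 22215. That count turned on single arrays, with 408 of all probe sets and BASP1 among the 17 without Bf 140 nM replicate 2, and 59 and DPYSL3 201430_s_at without DMSO 0.6% replicate 3. For 1 of the 17 all 3 Bf 140 nM arrays lay above all 3 DMSO 0.6% arrays, which held for 1.68% of all probe sets, and for 0 of the 17 all 3 lay below, which held for 0.981%. Because this contrast entered the choice of the genes, nothing is read from these counts. Differences of the members ran from -0.28 to 0.21, with 6 above 0 and 11 below, and had a median of -0.03 where the median of all probe sets was 0.03 and 63.2% of them lay above 0. Within pairs 1, 2 and 3 the members' medians were -0.0038, -0.18 and 0.06, against 0.03, -0.0043 and 0.04 over all probe sets, and 8, 3 and 9 of the 17 lay above 0. Pair 2 held the lowest of the 3 differences for 11 of the 17. In the unpaired fit the 95% confidence interval stayed within a doubling or halving for 15 of the 17, the exceptions being GAP43 216967_at and MARCKS 213002_at, and with the replicate number as a block it did so for all 17.

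**Figure D2:**
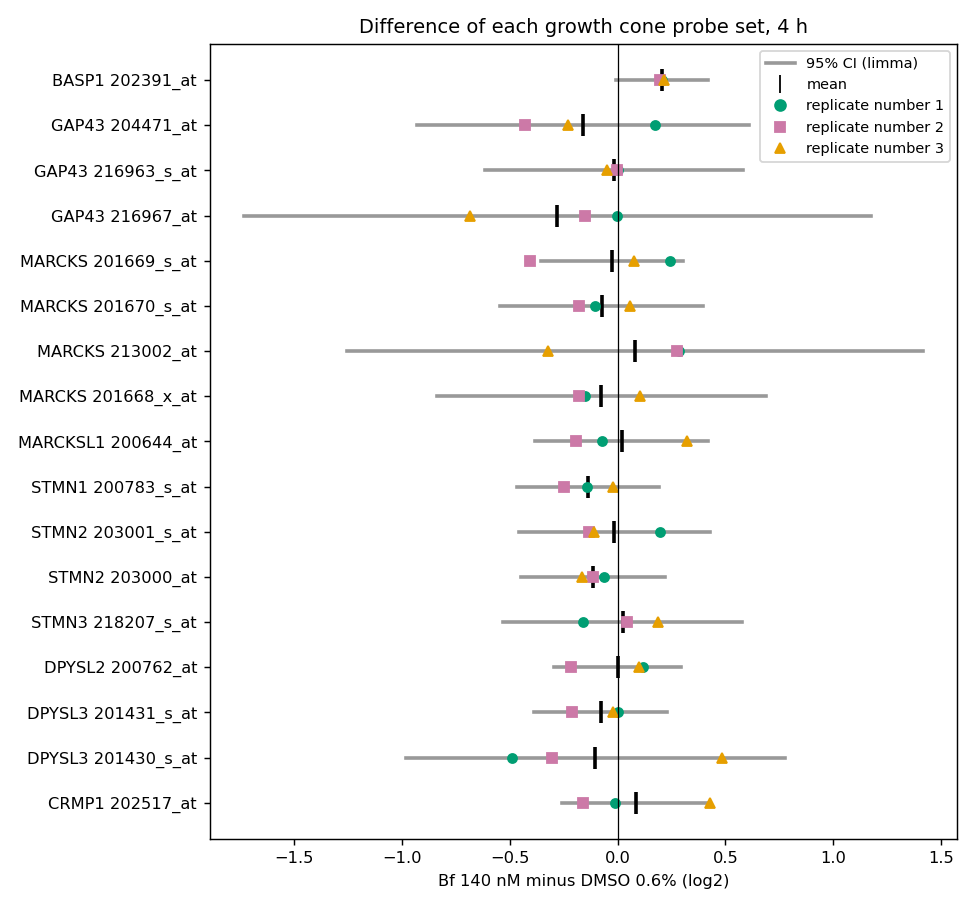
Difference between Bf 140 nM and DMSO 0.6% (log2) for each growth cone probe set, with the mean as a black tick, the 95% confidence interval of the unpaired limma fit as a grey bar and the 3 same-numbered pairs as coloured markers. The 3 pairs of BASP1 lie together near 0.21, and those of DPYSL3 201430_s_at are spread from -0.49 to 0.48.

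Among the membrane-attached proteins, BASP1, a myristoylated protein that gathers phosphatidylinositol 4,5-bisphosphate at the membrane, had levels of 10.73, 10.63 and 10.69 in Bf 140 nM and of 10.53, 10.44 and 10.47 in DMSO 0.6% (replicates 1, 2 and 3). The groups did not overlap, and the lowest Bf 140 nM array, replicate 2, lay above the highest DMSO 0.6% array, replicate 1. Group means were 10.68 ± 0.05 in Bf 140 nM and 10.48 ± 0.05 in DMSO 0.6% (SD, n = 3 each), a difference of 0.21 (SE 0.09) or a 1.15-fold ratio (95% CI 0.996 to 1.34). The SD of its 3 pair differences, the quantity that drew attention to it, was 0.0095, and 0.171% of all probe sets had a smaller one. In both groups replicate 2 was lowest and replicate 1 highest. The difference lay between 0.16 and 0.23 across 11 fits, among them each array left out, other scalings and the RNA quality covariate. As its groups did not overlap, leaving out an array could not turn the sign, and the block leaves the difference as it was. Of these fits only the scalings and the covariate could have turned it. Only 1 probe set represents BASP1, so agreement between probe sets could not be examined for it.

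GAP43, the growth-associated protein whose calmodulin binding is released by protein kinase C, had 3 probe sets. The brightest (204471_at) stood at 10.78, 10.93 and 11.58 in Bf 140 nM and at 10.60, 11.36 and 11.81 in DMSO 0.6%. Both replicates numbered 3 were the highest of their group, and the groups overlapped. Its difference was -0.16 (SE 0.33), with 0.17, -0.43 and -0.23 in pairs 1, 2 and 3. The sign turned without DMSO 0.6% replicate 3 and with the beta-actin 3' minus 5' difference as a covariate, and without DMSO 0.6% replicate 1 the difference was -0.49, in a range over the fits of -0.49 to 0.11.

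Of the other probe sets of GAP43, 1 followed it and 1 did not. Probe set 216967_at stood at 7.57, 7.77 and 9.09 in Bf 140 nM and at 7.57, 7.92 and 9.77 in DMSO 0.6%. Its difference was -0.28 (SE 0.62), with -0.0038, -0.15 and -0.68 in pairs 1, 2 and 3. Replicate 3 exceeded the mean of replicates 1 and 2 by 1.42 in Bf 140 nM and by 2.03 in DMSO 0.6%, the widest such gap of the 17 in each group. Probe set 216963_s_at stood at 9.89, 10.35 and 9.54 in Bf 140 nM and at 9.88, 10.36 and 9.58 in DMSO 0.6%, so that replicate 3 was here the lowest of both groups. Its pair differences were 0.0013, -0.0010 and -0.05, while the means of its same-numbered arrays were 9.88, 10.36 and 9.56. Over the 6 arrays its Pearson correlation was -0.42 with 204471_at and -0.69 with 216967_at, while 204471_at and 216967_at had 0.91 with each other. These are descriptions over 6 arrays that share replicate numbers. The annotation ties 216963_s_at and 216967_at to the same sequence record.

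MARCKS, the main protein kinase C substrate that cross-links actin at the membrane, showed a like division among its 4 probe sets. Its brightest (201669_s_at) had 12.55, 12.33 and 12.42 in Bf 140 nM and 12.31, 12.74 and 12.35 in DMSO 0.6%, with a difference of -0.03 (SE 0.14). The groups overlapped, and DMSO 0.6% replicate 2 was the highest array. Probe set 213002_at had 9.35, 9.65 and 10.77 in Bf 140 nM and 9.06, 9.37 and 11.09 in DMSO 0.6%, with both replicates 3 far above the rest.

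In probe set 201668_x_at of MARCKS the levels were 9.95, 9.45 and 9.05 in Bf 140 nM and 10.10, 9.63 and 8.95 in DMSO 0.6%. Here both replicates 3 were lowest, the reverse of 213002_at. Probe set 201670_s_at, at 11.26, 11.23 and 10.84 in Bf 140 nM and 11.37, 11.41 and 10.78 in DMSO 0.6%, was likewise lowest on both replicates 3. The correlation of 213002_at with these was -0.95 and -0.98, and that between them 0.88. Without the arrays numbered 3 the first 2 values were -0.91 and -0.62, so that 213002_at also ran against them over replicates 1 and 2. The correlation between 201668_x_at and 201670_s_at was then 0.26, so that its high value rested on the arrays numbered 3. Differences between the groups were 0.08 for 213002_at, -0.07 for 201670_s_at and -0.08 for 201668_x_at, each smaller than its own SE (0.57, 0.20 and 0.33). For MARCKS 3 of 6 pairings of probe sets shared the sign of the difference, against 3 of 3 for GAP43. Probe sets ending in _x_at or _s_at can hold probes that match related transcripts.

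MARCKSL1, the smaller relative of MARCKS, stood at 12.63, 12.16 and 12.67 in Bf 140 nM and at 12.70, 12.35 and 12.35 in DMSO 0.6%. The groups overlapped, with replicate 2 the lowest Bf 140 nM array. Its difference was 0.02 (SE 0.17), and the sign changed in 6 of the 11 fits.

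The split of 216963_s_at from the other GAP43 probe sets lay in replicate number 3, since over replicates 1 and 2 alone its correlations with 204471_at and 216967_at were 0.81 and 0.93 (4 arrays). The arrays numbered 3 also stood apart in RNA quality. The beta-actin 3' control probe set exceeded the 5' one, a sign of incomplete labelled transcripts, by 0.24, 0.49 and 0.89 in Bf 140 nM and by 0.11, 0.32 and 2.21 in DMSO 0.6%. For GAPDH the gap was 0.20, 0.22 and 0.38 in Bf 140 nM and 0.19, 0.10 and 1.30 in DMSO 0.6%. Replicate 3 had the widest gap in both groups, and DMSO 0.6% replicate 3 the widest of all. Between the groups an exact two-sided permutation test gave p = 0.9 for beta-actin and p = 1 for GAPDH, where 3 against 3 arrays cannot go below 0.1. In 13 of the 17 probe sets replicate 3 lay, in both groups, on the same side of the mean of replicates 1 and 2. It lay above in 6 of the 17 and below in 7. In 11 of the 17 it lay on the same side and further away in DMSO 0.6%. Over all probe sets these shares were 61.8% for the same side, 25.5% for above and 36.2% for below. For the same side and further in DMSO 0.6% the share was 33.1%. A shift beyond 0.4 in both groups was found for 8 of the 17, and for 7.54% of all probe sets. The 8 were all probe sets of GAP43, MARCKS 201670_s_at, 213002_at and 201668_x_at, STMN3, and DPYSL3 201430_s_at. Most of them thus stand for GAP43 and MARCKS alone, and they ran in both directions. The part of RNA quality in these shifts was not tested.

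**Figure D3:**
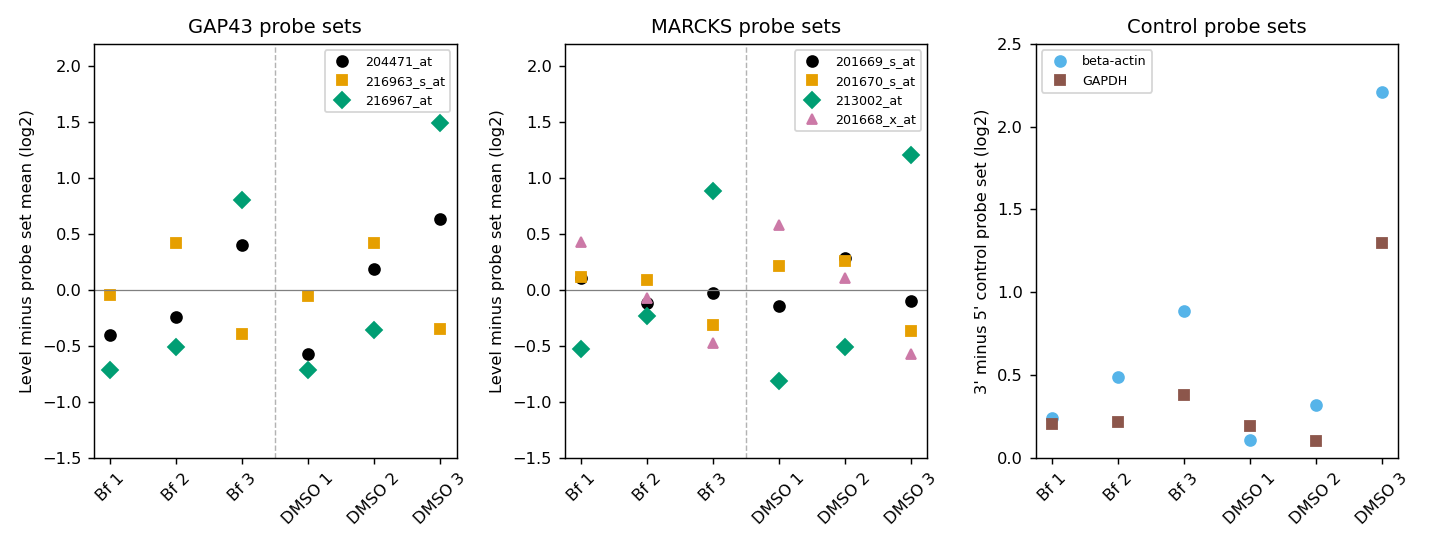
Level minus the probe set's own mean over 6 arrays (log2) for the 3 probe sets of GAP43 and the 4 of MARCKS, and, on the right, the 3' minus 5' difference of the beta-actin and GAPDH control probe sets (log2), by array with Bf 140 nM on the left of each panel. On both replicates 3, 216967_at and 213002_at lie high while 216963_s_at and 201668_x_at lie low, and the beta-actin difference is 0.89 and 2.21.

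The stathmins were followed next. STMN1, the cytosolic stathmin of dividing and growing cells, stood at 12.07, 11.80 and 12.27 in Bf 140 nM and at 12.21, 12.05 and 12.29 in DMSO 0.6%. The groups overlapped, but each Bf 140 nM array lay below the DMSO 0.6% array of its number, with pair differences of -0.14, -0.25 and -0.02. Its difference was -0.14 (SE 0.14), a 0.909-fold ratio (95% CI 0.723 to 1.14), and was below 0 in all 11 fits, from -0.25 to -0.02. The value nearest to 0 was that without Bf 140 nM replicate 2.

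STMN2 (SCG10), a palmitoylated stathmin carried to the growth cone, stood at 13.16, 12.87 and 13.39 in Bf 140 nM and at 12.97, 13.00 and 13.50 in DMSO 0.6% by its brightest probe set. Replicate 3 was highest in both groups, and the difference was -0.01 (SE 0.19). Its other probe set had 12.59, 12.51 and 12.83 in Bf 140 nM and 12.65, 12.63 and 13.00 in DMSO 0.6%, each Bf 140 nM array below its pair, with a difference of -0.11 (SE 0.14). The correlation of the 2 probe sets of STMN2 was 0.92 over the 6 arrays and 0.37 over the 4 arrays of replicates 1 and 2, so that the high value rested on the arrays numbered 3. STMN3 (SCLIP), a neuronal relative, was dim at 7.29, 7.66 and 7.03 in Bf 140 nM and 7.45, 7.62 and 6.84 in DMSO 0.6%. Its order was the same in both groups, with replicate 3 lowest and replicate 2 highest, and its difference was 0.02 (SE 0.24). Without DMSO 0.6% replicate 3 that difference was -0.21.

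Of the collapsin response mediator proteins, DPYSL2 (CRMP2), which binds tubulin dimers and promotes axon formation, had 12.70, 12.30 and 12.60 in Bf 140 nM and 12.59, 12.51 and 12.51 in DMSO 0.6%. The DMSO 0.6% arrays lay inside the range of the Bf 140 nM arrays, with SDs of 0.21 in Bf 140 nM and 0.04 in DMSO 0.6%. The fold was 1.00 (95% CI 0.816 to 1.23). DPYSL3 (CRMP4), which also binds actin, had 12.50, 12.27 and 12.18 in Bf 140 nM and 12.50, 12.48 and 12.21 in DMSO 0.6% by its brighter probe set, with a difference of -0.08 (SE 0.13).

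The dimmer probe set of DPYSL3 had 9.55, 10.04 and 9.35 in Bf 140 nM and 10.04, 10.34 and 8.87 in DMSO 0.6%, and the lowest array was DMSO 0.6% replicate 3. Its pairs differed by -0.49, -0.30 and 0.48, the widest range of pair differences among the 17. Its correlation with the brighter probe set was 0.62 over the 6 arrays and -0.18 over replicates 1 and 2 alone. CRMP1, which takes part in semaphorin 3A signalling, had 11.18, 11.14 and 11.20 in Bf 140 nM and 11.19, 11.30 and 10.77 in DMSO 0.6%. The Bf 140 nM arrays lay close together (SD 0.03) inside the wider DMSO 0.6% range (SD 0.28), whose low array was again replicate 3. Its difference of 0.09 (SE 0.15) became -0.07 without that array.

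The variation of each probe set over the 6 arrays was divided into the parts that go with treatment group, with replicate number and with neither. For 16 of the 17 the replicate number took a larger share than the group. BASP1 was the exception, with 87.7% of its sum of squares between groups, 12.2% between numbers and 0.12% in the remainder. As its even pair differences entered the choice of the genes, nothing is read from its small remainder or its group share. For GAP43 the shares by number were 88.4%, 99.8% and 94.3% for 204471_at, 216963_s_at and 216967_at. MARCKS 201669_s_at was unlike its companions, with 16.6% by number and 82.6% in the remainder, where the other 3 had between 93.8% and 97.0% by number. Medians over the 17 were 1.07% for the group and 86.3% for the number, beside 5.55% and 55.4% over all probe sets. The SD over the 6 arrays exceeded that of the median probe set (0.15) in 15 of the 17, and GAP43 216967_at and MARCKS 213002_at were above 99.9% and 99.8% of all probe sets in it. Those below the median were BASP1 and DPYSL2.

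**Figure D4:**
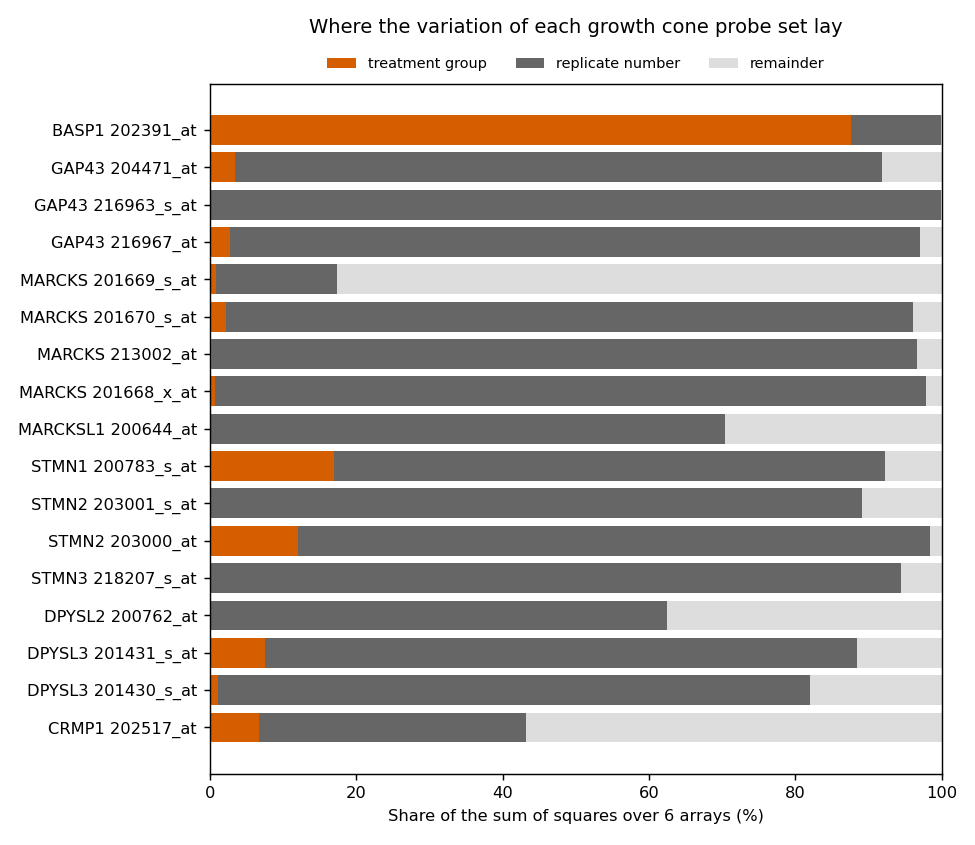
Share of the sum of squares over 6 arrays (%) that lay between treatment groups (orange), between replicate numbers (dark grey) or in neither (light grey) for each growth cone probe set. BASP1 has 87.7% between groups, while the replicate number takes the larger part for 14 of the other probe sets and the remainder for MARCKS 201669_s_at and CRMP1. BASP1 was chosen with its even pair differences in view.

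The genes with patterns most like 3 of these members were sought among 6847 other genes brighter than the median probe set, by Pearson correlation over the 6 arrays. Closest to BASP1 were ZNF202 (0.96), the ESCRT-I subunit MVB12B (0.93) and the ciliary protein TCTN1 (0.93), with differences of 0.15, 0.11 and 0.11, and 8 genes exceeded 0.9. ZNF202 had 8.80, 8.81 and 8.80 in Bf 140 nM and 8.69, 8.64 and 8.64 in DMSO 0.6%. For GAP43 the closest were SERPINI1 (neuroserpin, 0.995), the ATP synthase subunit ATP5MC3 (0.994) and the complex I subunit NDUFA1 (0.994), and 263 genes exceeded 0.9. STMN2 had the closest likeness to GOLGA8N (0.998), KTN1 (kinectin, 0.996) and ODR4 (0.996), with 673 genes above 0.9. The probe sets of GOLGA8N and KTN1 end in _x_at, and GOLGA8N belongs to a family of near-identical copies. The counts show how common the pattern of the brightest probe set of GAP43 and of STMN2 was over these arrays. They do not extend to the whole gene. GAP43 216963_s_at had a correlation of -0.42 with 204471_at, and the probe sets of STMN2 had 0.37 over replicates 1 and 2. BASP1 was chosen with its even pair differences in view, so nothing is read from its low count. A correlation over 6 arrays in 3 numbered pairs describes these arrays alone.

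Other genes of the growth cone were read from 4 lists, each gene by its brightest probe set. None of the measured genes passed the adjusted p of 0.10 in either direction by limma, beside the background of 0% above. Of 9 further family members and relatives 6 were measured, with 3 above 0 and a median difference of -0.01. CAP2, an adenylyl cyclase-associated actin regulator, stood at -0.21 (SE 0.17), the stathmin STMN4 at -0.06, DPYSL4 at 0.03 and RUFY3 at 0.09. Of 35 kinases, calcium sensors and GTPases that act on these proteins 28 were measured, 18 above 0, with a median of 0.04. RHOA, the GTPase behind growth cone collapse, was at 0.24 (SE 0.27), its pairs being -0.10, -0.19 and 1.00, so that the pair with DMSO 0.6% replicate 3 carried it. GSK3B, which phosphorylates DPYSL2, was at 0.20 (SE 0.21), while GSK3A was at -0.14 and PRKCE, a protein kinase C, at -0.13.

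Tubulin, actin and their regulators gave 35 measured genes of 37, of which 23 had probe sets above the 90th percentile, with 23 above 0 and a median of 0.05. ABI1 (0.31, SE 0.35) and VASP (0.17, SE 0.11), both actin regulators, had the highest differences, and the tubulin TUBA1A (-0.20, SE 0.14) and the microtubule-associated MAP1B (-0.20, SE 0.18) the lowest. VASP was higher in Bf 140 nM in all 3 pairs (0.12, 0.13 and 0.25) and TUBA1A lower in all 3 (-0.09, -0.24 and -0.28). Of all probe sets 8.96% were higher in all 3 pairs and 4.70% lower. Of 29 membrane, adhesion and guidance genes 26 were measured, 12 above 0, with a median of -0.0067. The adhesion molecule L1CAM was at 0.26 (SE 0.26), with near-equal pairs of 0.23, 0.26 and 0.27, although its other probe set had the opposite sign. The other probe set also had the opposite sign for CAP2, GSK3A, MAP1B and SEMA3C, as did 1 of 2 for DPYSL4 and 1 of 3 for NTRK2. NTRK2, the BDNF receptor, was at 0.17, SEMA3C at -0.13 and RTN4 (Nogo) at -0.24 (SE 0.15). Only CHL1 among the genes of the 4 lists did not overlap between groups, at 6.16 in Bf 140 nM and 6.24 in DMSO 0.6%, a dim level at percentile 4.30, and it is named after its values were seen. It lay lower in Bf 140 nM, as 0.981% of all probe sets did without overlap.

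The labelled cell type was checked against its markers. Of 12 noradrenergic neuroblast genes 11 were measured and 9 lay above the 90th percentile, among them PHOX2A, GATA2, GATA3, DBH and DDC. HAND2 stood at 7.78 in Bf 140 nM and 7.75 in DMSO 0.6%, at percentile 45.7, below the median probe set. TH stood at 6.58 in Bf 140 nM and 6.56 in DMSO 0.6%, at percentile 12.1. The mean level of the 11 ranged from 11.07 to 11.41 in Bf 140 nM and from 11.10 to 11.35 in DMSO 0.6%. Of 12 mesenchymal or Schwann-like markers 10 were measured, with 2 above the 90th percentile (VIM and TWIST1) and mean levels of 9.37 to 9.50 in Bf 140 nM and 9.37 to 9.60 in DMSO 0.6%. Of the 10, 7 lay above the median probe set, among them COL3A1 and FN1 at percentiles 84.2 and 83.2. SOX10, COL1A2 and S100B were below it, at percentiles 45.9, 42.3 and 35.3. The ranges of mean level of both marker lists overlapped between the groups, and 0 genes of either passed the adjusted p of 0.10 by limma. Differences were above 0 for 9 and below for 2 of the noradrenergic genes (median 0.07). Of the mesenchymal or Schwann-like ones 3 were above 0 and 7 below (median -0.02). Over all probe sets 63.2% lay above 0. In pairs 1, 2 and 3 the noradrenergic medians were -0.0081, -0.12 and 0.37. Only the pair with DMSO 0.6% replicate 3 thus lay above 0. The mesenchymal or Schwann-like medians were -0.07, -0.0042 and -0.08. Of these markers only S100B did not overlap between the groups, at 7.30 in Bf 140 nM and 7.38 in DMSO 0.6%. It is named after its values were seen and lay lower in Bf 140 nM, as 0.981% of all probe sets did without overlap. The part of these markers in the growth cone values was not tested.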

How the data were processed

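Levels came from 6 Affymetrix GeneChip arrays for human genes. The deposited values are log2-like levels that the authors made from GCOS cell intensities by variance-stabilizing normalization (justvsn) in R version 2.5.0. How the probes of a probe set were summarised is not stated in those methods. Base 2 was read from the maximum of 15.2, since a 16-bit scanner cannot exceed 11.1 in natural logarithms. No detection calls were used, arrays carry no read depth, and their number limits the precision. Of 22277 probe sets 62 controls were left out of tests. Symbols came from the platform annotation, updated by Entrez identifier through RefSeq.

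All probe sets were fitted unpaired with limma (version 3.58.1, R version 4.3.3), two-sided. Benjamini-Hochberg adjustment was used with a threshold of 0.10, after the FDR of the study's methods. The fit was also run on simulated arrays, whose noise was independent of the replicate number. That run checked only that mean differences were recovered, so it does not bear on the error estimates. A gene was represented by its brightest probe set. In each of 4 lists the 2 highest and 2 lowest differences were named. The members and lists were chosen with earlier results of these data known. P-values measure the spread between flasks, which the labels number as replicates and the study's methods call independent. In the unpaired fit this spread includes what goes with the replicate number. For GAP43 216967_at the SE was 0.62 in that fit and 0.14 with the replicate block.

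Replicate numbers are shared by both groups. Deviations of same-numbered arrays from their group means correlated at 0.60, 0.23 and 0.57 over all probe sets, each above 0.1, so the numbers were taken as pairs. Alternatives were the replicate block, other scalings, a filter on dim probe sets, a beta-actin covariate, single arrays left out, probe sets ending _s_at or _x_at left out, gene means and thresholds of 0.05 and 0.20.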

Additional observations from a re-analysis of the deposited data

How the results depend on the processing

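With the replicate block 0 probe sets were called, of all 22215 and of the 17 growth cone probe sets, as in the unpaired fit, and the paired fit changed no call of the lists either. At an unadjusted p under 0.05 the block gave 92 of all probe sets and 0 of the 17. With single arrays left out that count ran from 8 to 408 of all probe sets, and 1 of the 17 was in it without Bf 140 nM replicate 2 and without DMSO 0.6% replicate 3. The count past the adjusted threshold was also 0 under every other alternative run: quantile normalization, median centring, the filter on dim probe sets, the beta-actin covariate, each array left out, and thresholds of 0.05 and 0.20. The median difference of the 17 was -0.03, between -0.07 and -0.02 with each array left out in turn, and 0.0096 when _s_at and _x_at probe sets were dropped. Over 11 fits BASP1 stayed above 0, and STMN1 and DPYSL3 stayed below 0. The sign of BASP1 could not turn with the block or, its groups not overlapping, with an array left out. For the other 7 genes the sign of the brightest probe set turned in at least 1 fit. In the unpaired fit the 95% confidence intervals of GAP43 216967_at (-1.73 to 1.18) and MARCKS 213002_at (-1.26 to 1.42) do not exclude 2-fold changes, whereas with the replicate block they were -0.59 to 0.03 and -0.23 to 0.39. Differences of dim probe sets such as STMN3 are understated by the scale.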

Other observations

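A probe set annotated to both STMN1 and MIR3917 (217714_x_at), and therefore not counted as STMN1, stood at 8.99, 9.04 and 9.03 in Bf 140 nM and at 9.09, 9.13 and 8.89 in DMSO 0.6%. Its difference was -0.02 (SE 0.10), with pairs of -0.10, -0.09 and 0.14, and the groups overlapped. The order of its arrays was not that of the other STMN1 probe set, in which replicate 3 was highest in both groups.

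The growth cone probe sets followed the replicate numbers more closely than the arrays did as a whole. Over the 17 probe sets the deviations of same-numbered arrays from their group means correlated at 0.89, 0.86 and 0.96 for numbers 1, 2 and 3, beside 0.60, 0.23 and 0.57 over all probe sets. These are descriptions over probe sets, several of which stand for the same gene, and the widest-varying ones weigh most in them.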
